A study of Homo sapiens with 10 samples.

Results

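Isolated strong shared peaks are places in the genome of 501Mel cells, an established human skin melanoma line, where eGFP-tagged IRF4 gave a high peak score in both ChIP-seq replicates and where no further shared peak lay nearby. Members were selected on the authors' score and on position. A replicate 1 peak on chromosomes 1 to 22 or X had to score at least 300, overlap by 1 base or more a replicate 2 peak scoring at least 450, and have no other shared replicate 1 peak within 12500 bases edge to edge. A peak was shared if it overlapped any replicate 2 peak. The rule was met by 614 of the 7568 peaks of replicate 1, and each member was matched to a replicate 2 peak of its own, the best-scoring one it overlapped. The members made up 8.11% of the replicate 1 list, 4.79% of the 12831 peaks of replicate 2 and 13.1% of the 4687 shared peaks on these chromosomes.

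The study combined ChIP-seq of the tagged protein, in 2 biological replicates with an input each, with RNA-seq of the same line given siIRF4 or siCTRL. Only the ChIP peak lists were used for these regions. The inputs and the RNA-seq libraries were not analysed here, and neither the sequence nor the genes at the peaks were analysed. Every ChIP library came from the same cell line with the same tagged protein, and how that protein was introduced and at what level is not given in the sources used here. No ChIP from cells without the tagged protein was analysed here, so no background level stands beside the peaks. As the values belong to 2 libraries and to regions that are not replicates, they are described without a test between conditions.

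IRF4 is interferon regulatory factor 4, a transcription factor best known from lymphocytes, where it directs B cell and T cell differentiation. Its DNA-binding domain recognises the core GAAA of interferon response elements, and because it binds weakly alone it often shares composite sites with ETS-family or AP-1-family partners. In melanocytes, the pigment cells from which melanoma arises, IRF4 acts with the lineage factor MITF on pigmentation genes such as that for tyrosinase. ChIP-seq isolates DNA fragments crosslinked to a protein and counts them along the genome, and a peak is a stretch where fragments pile up. An eGFP tag lets the protein be isolated through an antibody against the tag.

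The rule left most strong peaks in place. Of the 756 shared peaks that passed both score thresholds, 614 (81.2%) stood alone and 142 had a shared neighbour within 12500 bases. Among the shared peaks that missed a threshold, 86.3% stood alone, which gave 3393 isolated weaker peaks. These weaker peaks are of several kinds: 650 missed only the replicate 2 threshold, 556 missed only the replicate 1 threshold and 2187 missed both. They are the peaks most like the members and are given beside them in most comparisons.

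The scores, which chose the members, are given as a description. In replicate 1 the members' scores ran from 301.94 to 2272.09 with a median of 527.9 and a middle 50% from 387.05 to 705.57. In replicate 2 they ran from 450.42 to 3108.05 with a median of 705.6 and a middle 50% from 547.9 to 987.8. The lists themselves begin at 100.01 in replicate 1 and 150.01 in replicate 2, and they carry the labels p10 and p15. These values would fit a score of -10 log10 p with a different p threshold in each list, but no source used here defines the score or the labels. A score is therefore used to rank peaks within its own list. Raw scores were compared between the lists only to pick the members named below for uneven scores, by their ratio.

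**Figure D1:**
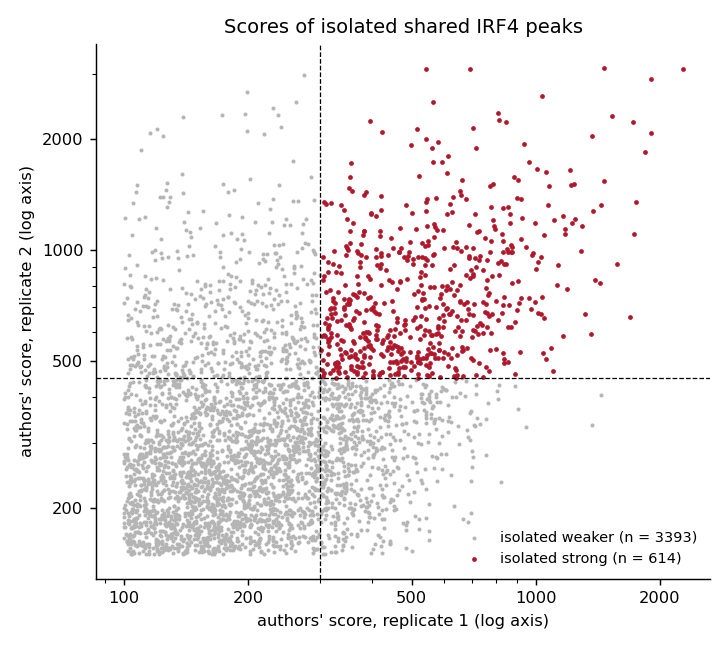
Authors' score in replicate 1 against that in replicate 2 for every isolated shared peak, on log axes, with the thresholds of 300 and 450 as dashed lines. The 614 members fill the upper right corner without a gap at either line, and the 3393 isolated weaker peaks lie outside it.

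No break in the scores separated members from their neighbours. The lowest members in replicate 1 scored 301.94, 303.38 and 303.52, and the isolated shared peaks that missed only this threshold by the least scored 299.11, 299.05 and 298.95. The lowest members in replicate 2 scored 450.42, 450.76 and 452.17, and the closest peaks that missed only this threshold scored 449.88, 448.87 and 447.21. Some peaks at the border of one list were well inside the other. The peak at chr2:232650631-232651871 scored 641.55 in replicate 1 and 450.76 in replicate 2, and the narrow peak at chr15:56657274-56657866 scored 516.56 and 452.17.

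Members held a wide range of places in each list. Of the members, 257 (41.9%) lay in the best-scoring 10% of both lists, 133 only in that of replicate 1, 108 only in that of replicate 2 and 116 in neither. Those levels begin at scores of 445.4 and 643.08. In the best-scoring 5%, which begins at 608.94 and 873.39, 109 members (17.8%) lay in both lists, 113 only in replicate 1 and 103 only in replicate 2. The rule chose the members for high scores in both lists, so these counts describe the members and measure no agreement between the replicates.

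The strongest member in the combined ranking lay on chromosome 13 at chr13:41633771-41636495, with scores of 2272.09 and 3100. Its replicate 2 peak, chr13:41633998-41636478, lay wholly inside the replicate 1 peak, and the centres were 105 bases apart. Both lists thus hold a single peak of about the same extent here. Its nearest shared neighbour was 69024 bases away.

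The member next in rank, at chr12:57480358-57486334, looked different in each list. Replicate 1 gave a single stretch of 5977 bases scoring 1908.29, whereas its best replicate 2 peak, at chr12:57479596-57482959, was 3364 bases wide and scored 2906.39. The replicate 1 stretch touched 2 replicate 2 peaks, and the centres of the matched pair were 2068.5 bases apart. A further member stood 17263 bases away at chr12:57503598-57506467, with scores of 519.47 and 1583.58.

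The member with the highest listed replicate 2 score, 3108.05, lay at chr1:151162012-151163361 and scored 1465.72 in replicate 1. It was compact in both lists, at 1350 and 1416 bases, with centres 42 bases apart. Another 3 members were listed at exactly 3100 in replicate 2. Whether that is a fixed value is not given in the sources used here, so their order against this member is uncertain. Unshared peaks lay close by: a replicate 2 peak without a partner lay 278 bases away and a replicate 1 peak without a partner 4511 bases away.

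The broad member at chr9:73032772-73036392 was placed almost identically by the replicates. Its widths were 3621 and 3759 bases and its centres 8 bases apart, with scores of 1718.2 and 2221.79. Its nearest shared peak was 179631 bases away, and a replicate 2 peak without a partner lay 3315 bases away. On chromosome 2, chr2:230785602-230788073 scored 1530.76 and 2303.9 and was 924214 bases from the nearest shared peak. The peak at chr3:146261637-146262857 was 863616 bases from its nearest, and compact, at 1221 and 1488 bases, and it scored 1033.35 and 2619.31. The strongest members thus include single peaks in long stretches without another shared peak.

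In the remaining members of the best 10 the nearest shared peak was closer than in those just described. The peak at chr5:40834978-40836700 scored 1904.74 and 2070.89 and stood 35693 bases from another member, chr5:40797546-40799284, which scored 811.41 and 2351.11. At chr3:156892010-156893144 the scores were 1846.16 and 1848.55, and the next member, at 12941 bases, lay just beyond the isolation distance. The member at chr10:77054034-77055549 scored 1366.6 and 2043.89 and was matched by a wider replicate 2 peak of 2009 bases against 1516. This member's nearest shared peak was 102733 bases away, whereas a replicate 2 peak without a partner lay 177 bases from the member. On chromosome 20, chr20:304474-309007 was 4534 bases wide in replicate 1 and 4488 in replicate 2, with scores of 1462.94 and 1535.8, and another member stood 17901 bases away.

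Some members stood at very different places in the lists. The peak at chr10:77804250-77805449 had rank 513 of 7568 in replicate 1, with a score of 541.35, and shared rank 3 of 12831 in replicate 2, with 3100. The peak at chr11:47275678-47277073 had rank 964 with a score of 396.15 in replicate 1 and rank 31 with 2240.25 in replicate 2, and the replicate 1 peak of 1396 bases covered 46.5% of the replicate 2 peak of 3000 bases.

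Other members stood high in replicate 1. The peak at chr4:129732045-129734045 had rank 19 in replicate 1 with a score of 1694.2 and rank 1223 in replicate 2 with 657.49. The peak at chr15:75659792-75661492 had rank 36 with 1360.99 and rank 1502 with 594.4. Their centres in the lists were 64 and 12.5 bases apart.

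Members were wider than isolated weaker peaks in both lists. The median width of members was 1802 bases in replicate 1 (95% order-statistic interval 1729 to 1870, n = 614) and 1853 bases in replicate 2 (1804 to 1909). Isolated weaker peaks had medians of 1410 bases (1386 to 1442, n = 3393) and 1418 bases (1396 to 1444). Greater width was not particular to isolated peaks. The 142 strong shared peaks with a shared neighbour within 12500 bases had medians of 2029 (1825 to 2238) and 2189.5 bases (2021 to 2451). The middle 50% of members ran from 1390 to 2354 bases in replicate 1 and that of weaker peaks from 1063 to 1890, so the classes overlap widely. The intervals cover the spread over regions only. The sources used here do not say how the caller sets a width or a score, and the part of fragment number in either was not tested.

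**Figure D2:**
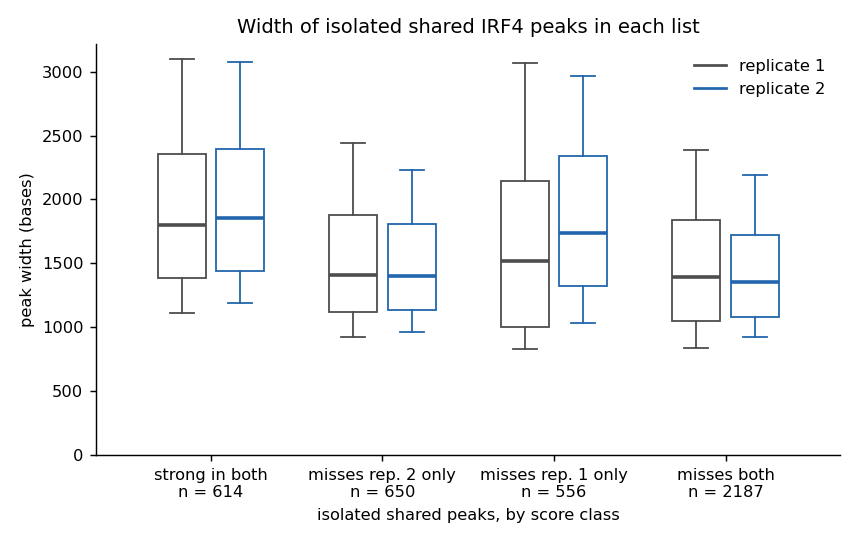
Peak width in bases for the isolated shared peaks, by score class, with replicate 1 in grey and replicate 2 in blue. Lines mark medians, boxes the middle 50% and whiskers the 10th and 90th percentiles. Among these isolated classes members have the highest medians, 1802 and 1853 bases, and peaks that miss only the replicate 1 threshold come next. Strong shared peaks with a shared neighbour are not shown.

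The weaker kinds were not alike in width. Peaks that missed only the replicate 1 threshold had median widths of 1518.5 and 1740 bases. Peaks that missed only the replicate 2 threshold had 1412 and 1400.5 bases, close to the 1395 and 1358 bases of peaks that missed both. The median width of peaks strong in replicate 1 alone was thus within 50 bases of that of peaks weak in both lists.

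Within the members, width went only weakly with score. Spearman's rho of width and score was 0.069 in replicate 1 and 0.20 in replicate 2 (n = 614 in each), against 0.070 and 0.33 among isolated weaker peaks (n = 3393). From the lowest to the highest bin of replicate 1 score, the median replicate 1 width was 1741, 1810, 1737 and 1920.5 bases. The width itself was shared between the lists, with a rho of 0.80 between the replicate 1 and replicate 2 widths. Among isolated weaker peaks that rho was 0.71 (n = 3393).

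The widest members were picked on their replicate 1 width, so a narrower partner in replicate 2 is no finding about them. The peak at chr10:77158283-77166561 spanned 8279 bases in replicate 1 and 4801 in replicate 2, with scores of 421.24 and 806.48. The peak at chr16:89983850-89991732 spanned 7883 bases in replicate 1 and was matched by a replicate 2 peak of 2374 bases, 1 of 2 that it touched. At chr2:60776393-60782915, 6523 bases wide, replicate 1 drew a single peak over 3 replicate 2 peaks, and the centre of the best of them lay 2250.5 bases away. The peak at chr19:46268115-46275404 spanned 7290 bases and covered a replicate 2 peak of 4186 bases entirely. In 72 members the replicate 1 width exceeded 3000 bases.

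The narrowest members were also picked on their replicate 1 width, and the same holds for their wider partners. The narrowest, at chr15:56657274-56657866, measured 593 bases and lay inside a replicate 2 peak of 1015 bases, with centres 5 bases apart. The peak at chr15:49912839-49913579 measured 741 and 937 bases and scored 891.15 and 463.6, with centres 10 bases apart. On chromosome 6, chr6:69942422-69943139 measured 718 and 1047 bases, and chr6:28911179-28911929 measured 751 and 1237 bases with scores of 354.69 and 1130.39. The peak at chr5:86708283-86708990 measured 708 bases and filled 49.6% of its replicate 2 partner.

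The replicates placed the members at nearly the same point. The distance between the centres of a member and of its replicate 2 peak had a median of 94.25 bases (95% order-statistic interval 84.5 to 105) and a middle 50% from 43 to 186.5 bases. The centres lay within 100 bases of each other in 319 members (52.0%, 95% exact binomial interval 47.9 to 56.0) and over 500 bases apart in 43 members (exact interval of the share 5.11% to 9.32%). Isolated weaker peaks had a median of 88.5 bases (84 to 93) and 54.6% within 100 bases (52.9 to 56.3), intervals that overlap those of the members. Strong shared peaks with a shared neighbour within 12500 bases had centres this close less often, in 34.5% of 142 cases (26.7 to 42.9). Those peaks were also wider than members, with medians of 2029 and 2189.5 bases, and the part of width was not tested. In that class neighbouring peaks could share a replicate 2 match.

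Shifts to either side were about equally frequent. The replicate 2 centre lay at a higher coordinate in 305 members, at a lower one in 308 and at the same one in 1, and the median signed shift was -0.5 bases.

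Centre distance was larger in wider members. In the narrowest of 4 bins of equal size, up to 1389 bases wide in replicate 1, the median distance was 61.5 bases. It was 84.5 and 99.5 bases in the bins between and 168.5 bases in the widest bin, from 2357 to 8279 bases. Among members, distance and replicate 1 width had a rho of 0.31, against -0.033 for distance and replicate 1 score (n = 614). Among isolated weaker peaks the coefficients were 0.30 and -0.11 (n = 3393), so the relation to width is not particular to members. All are descriptions over regions of the same pair of libraries. Wider peaks can overlap with centres farther apart, and the edges that give the replicate 1 width also set its centre. How far this alone gives the trend was not tested.

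**Figure D3:**
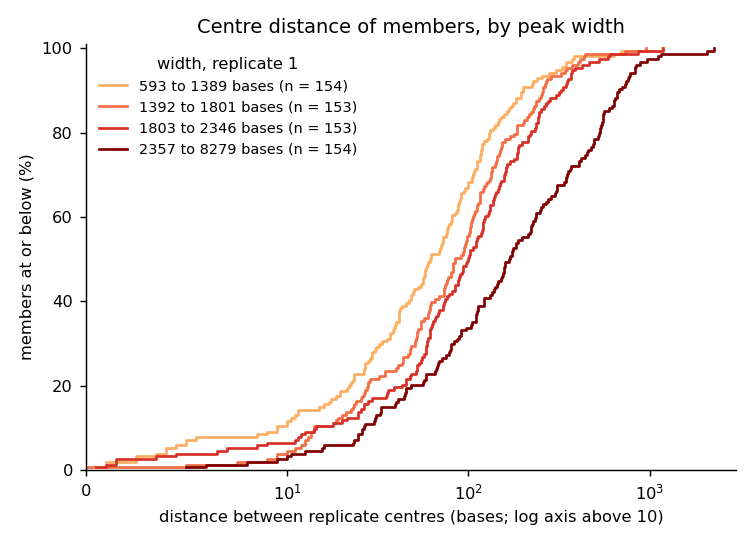
Share of members (%) with centres at or below a given distance in bases, in 4 bins of replicate 1 width of equal size. The distance axis is linear up to 10 bases and logarithmic above. The curves shift to the right with width, from a median of 61.5 bases in the narrowest bin to 168.5 bases in the widest.

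The lists overlapped over most of each peak. The replicate 2 peak covered a median of 96.7% of a member, and the member covered a median of 93.1% of its replicate 2 peak. For isolated weaker peaks these medians were 94.9% and 92.6%. At least 50% of both peaks was covered in 592 members (96.4%, exact interval 94.6 to 97.7), against 94.3% (93.5 to 95.1) of isolated weaker peaks. At least 90% of both was covered in 232 members (37.8%, 33.9 to 41.8), against 31.0% (29.4 to 32.6) of isolated weaker peaks. The trait is not particular to members: among weaker peaks that missed only the replicate 2 threshold the share was 36.8% (33.1 to 40.6). In 220 members (35.8%) the replicate 1 peak lay wholly inside the replicate 2 peak, and in 103 (16.8%) the reverse held. Among isolated weaker peaks these shares were 31.9% and 20.0%. A member overlapped 1 replicate 2 peak in 607 cases, 2 in 6 and 3 in 1.

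Isolation was defined by shared peaks alone, and most members were in fact alone. The nearest other shared peak lay a median of 119453 bases away (95% order-statistic interval 105712 to 132350), against 125828 bases (118953 to 134092) for isolated weaker peaks. The gap showed little relation to score, with a rho of -0.0068 against the replicate 1 score and -0.056 against the replicate 2 score. Of the members, 477 (77.7%, exact interval 74.2 to 80.9) had no other listed peak of any kind within 12500 bases. This was not particular to members. An unshared peak of either list lay within that distance of 22.3% of members, 20.3% of isolated weaker peaks and 22.6% of all shared peaks.

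The other 137 members had an unshared peak nearby, mostly from replicate 2, whose list is longer. A replicate 2 peak without a partner lay within 12500 bases of 107 members (17.4%, exact interval 14.5 to 20.7) and a replicate 1 peak without a partner within the same distance of 39 (6.35%, 4.56 to 8.58). These shares were near those of all shared peaks on the same chromosomes, 18.0% and 6.10%.

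Company from replicate 2 was more frequent beside members with high replicate 2 scores. In the highest of 4 bins of replicate 2 score, from 987.96 upwards, 41 of 154 members (26.6%, exact interval 19.8 to 34.3) had such a neighbour. The share was 20.9% (14.8 to 28.2) in the bin below, 10.5% (6.10 to 16.4) in the next and 11.7% (7.08 to 17.8) in the lowest. By replicate 1 score the shares showed no order, at 14.9%, 20.9%, 13.1% and 20.8% from the lowest bin to the highest. Isolated weaker peaks that missed only the replicate 1 threshold had such a neighbour in 26.1% of cases (22.5 to 29.9), and those that missed only the replicate 2 threshold in 10.9% (8.63 to 13.6). Replicate 2 scores chose the members and come from the list that holds these neighbours, so the pattern is within 1 library and was not tested.

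Members and isolated weaker peaks had strong neighbours at similar rates, with overlapping intervals. The nearest other shared peak passed both thresholds for 103 members (16.8%, exact interval 13.9 to 20.0) and for 15.7% (14.5 to 16.9) of isolated weaker peaks. Over all shared peaks on these chromosomes 16.1% passed both.

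A few members stood in very long stretches without another shared peak. The most isolated, at chr9:84301942-84305270, was 2288883 bases from the next shared peak, with scores of 811.91 and 647.97, although an unshared replicate 2 peak lay 85696 bases away. The peaks at chr2:166809697-166810894 and chr5:49961824-49963963 were 2215914 and 2119154 bases from theirs. Among all members 31 (5.05%) had no other shared peak within 1 megabase, near the 5.48% of isolated weaker peaks and the 4.63% of all shared peaks.

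Members themselves were thinly spread, with a median gap of 1057300 bases from one member to the nearest other. No other member lay within 1 megabase of 319 members (52.0%), and 36 members (5.86%) had another within 50 kilobases. The closest pair was that on chromosome 3 described above, 12941 bases apart. On chromosome 19, chr19:47597880-47600287 and chr19:47613887-47617309 were 13599 bases apart, with scores of 468.84 and 1149.56 for the former and 1061.52 and 1627.39 for the latter.

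The tightest group was on chromosome 2, where 4 members fell between 70313194 and 70418561, a span of 105.4 kilobases. The peak at chr2:70313194-70315942 scored 352.5 in replicate 1 and 716.43 in replicate 2, and chr2:70350291-70352948 scored 418.78 and 1093.55. The peak at chr2:70368746-70370416, 15797 bases further on, scored 530.94 and 733.1. The last, at chr2:70417266-70418561, scored 533.83 and 510.7. None of the 4 scored above 533.83 in replicate 1.

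The fullest stretches of 1 megabase held 5 members each. On chromosome 17, from 57696360 to 58678756, 5 of the 7 shared peaks were members, with replicate 1 scores from 315 to 1318.12 and replicate 2 scores from 597.36 to 1155.32. On chromosome 1, from 150533152 to 151432182, 5 of 15 shared peaks were members, among them the member with the highest listed replicate 2 score. The copy number of these stretches in 501Mel cells was not analysed here.

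Members were found on all 23 chromosomes considered. Chromosome 1 held 85 members (13.8%), chromosome 2 held 56 and chromosome 3 held 53, while chromosome 21 held 5 and chromosome 18 held 4. The X chromosome held 10. Members followed the spread of the shared peaks: they made up 13.1% of shared peaks over all, and on 21 chromosomes the exact 95% interval of the share included that value.

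**Figure D4:**
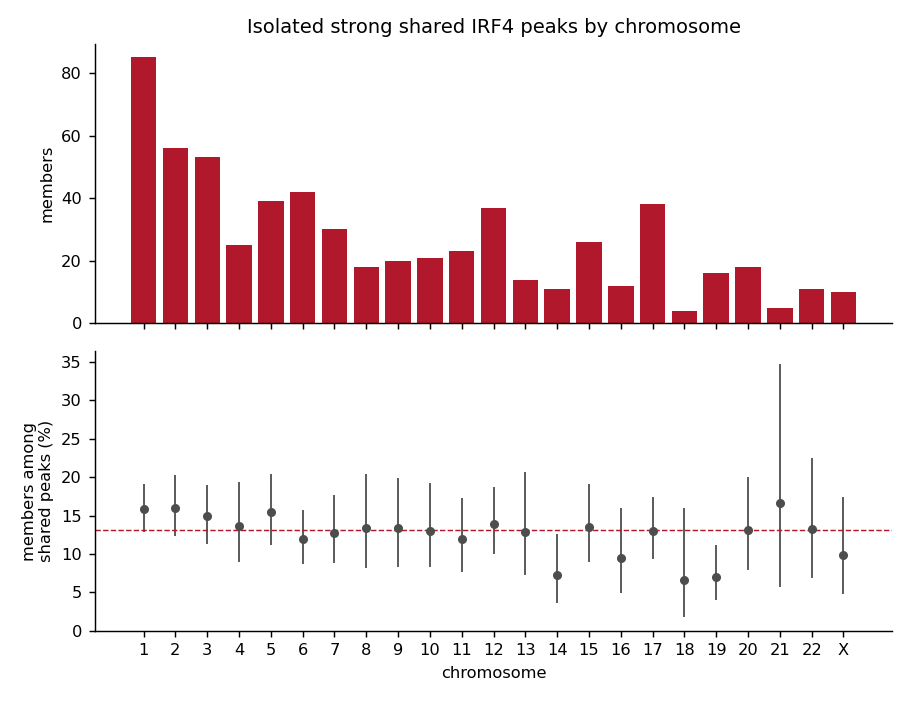
Number of members per chromosome (bars, upper panel) and members as a share of the shared peaks of that chromosome (%, points with 95% exact binomial intervals, lower panel), with the share over all chromosomes, 13.1%, as a dashed line. Chromosomes 14 and 19 have intervals wholly below the line.

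The exceptions were chromosomes 14 and 19. On chromosome 19, 16 of 228 shared peaks were members (7.02%, exact interval 4.06 to 11.1), and on chromosome 14, 11 of 152 (7.24%, 3.67 to 12.6). These chromosomes held 146 and 111 isolated weaker peaks, and their other shared peaks had a shared neighbour within 12500 bases. The part of isolation in the low shares was not tested. Chromosome 18 had the lowest share, 4 of 61 (6.56%, 1.82 to 15.9), with an interval that included 13.1%. No chromosome had an interval wholly above 13.1%, and the 23 intervals were not corrected for their number.

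Members on chromosome 19 also had the largest median width of the 23 chromosomes in both lists. It was 3209.5 bases in replicate 1 and 3083 in replicate 2 (n = 16), against 1781 and 1848 bases for members on the other chromosomes. In replicate 1, 13 of the 16 were wider than the median of all members, and in replicate 2, 11 were. The isolated weaker peaks of chromosome 19 had medians of 1719.5 and 1529.5 bases, with 146 peaks. Chromosome 22 came next, with 2310 and 3001 bases over 11 members, and members on X had 1509.5 and 1406.5 bases over 10 members.

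Several members of chromosome 19 were wide in both lists. The peak at chr19:18389900-18393923 measured 4024 bases in replicate 1 and 7048 in replicate 2, the widest replicate 2 peak of any member, with scores of 856.72 and 1306.43. The peak at chr19:50600456-50606349 measured 5894 and 5938 bases and scored 330.35 and 493.97. The peak at chr19:52190783-52194695 measured 3913 and 4513 bases and scored 561.6 and 2522.57. Narrow members were present too, such as chr19:56602707-56603915 with 1209 and 1438 bases.

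**Figure D5:**
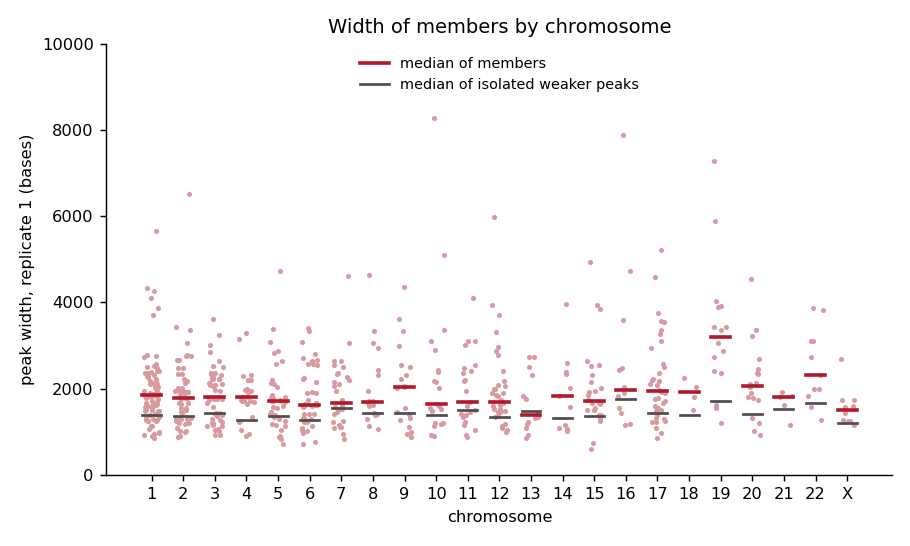
Replicate 1 width in bases of each member (points) by chromosome, with the median of members in red and the median of the isolated weaker peaks in grey. The red line lies highest on chromosome 19, at 3209.5 bases, and lies above the grey line on every chromosome but 13.

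The greater width of members held chromosome by chromosome. In replicate 1 their median exceeded that of the isolated weaker peaks on 22 of 23 chromosomes, the exception being chromosome 13 with 1381.5 against 1486 bases. In replicate 2 it exceeded it on 23 of 23, chromosome 13 included, with 1847.5 against 1411 bases.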

How the data were processed

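Peak lists of 2 ChIP-seq replicates of eGFP-tagged IRF4 in 501Mel cells were used as deposited, one list per replicate. The authors deposited a position, a name beginning with MACS and a score for each peak. Bowtie2, kallisto and sleuth, and the builds hg19 and GRCh38, stand in the submitters' processing notes without a role. The contig names of the lists are those of hg19, and coordinates are given as in the lists, counted from 1. The lists carry the labels p10 and p15, which may be thresholds that differ between them. What the labels and the score mean, the caller's version and the use of the input are not given in the sources used here. The lists hold no read counts, so depth is unknown.

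Overlaps, gaps and centres (midpoints) were computed with Python 3.11.15 and pandas 2.3.3. Classes were recovered for 1250 of 1250 simulated peaks, and bedtools 2.31.1 gave the same 614 members. The simulated peaks lay on a single chromosome with a single partner at most, and their replicate 2 scores never fell below the threshold. Intervals are exact binomial for shares and order-statistic for medians, at 95%, and cover counting over regions only. The members and the lists were chosen with earlier results of these data known. Peaks were named by combined score rank (the best 10), nearness to a threshold (3 each side) and width (5 widest, 5 narrowest). Those named for uneven scores, distance, crowding or chromosome 19 were picked once these values were known. Planned distances to genes and motif searches were not run, because no annotation or sequence in the build of the lists was used here. Planned RNA-seq tests were not run, because no table used here pairs the transcripts with genes.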

Additional observations from a re-analysis of the deposited data

How the results depend on the processing

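The member count followed the score thresholds, which fix it by construction: 614 became 231 with both thresholds 1.5 times as high and 1403 with both lowered by a factor of 1.5. With overlap of at least 50% of both peaks it was 613, of which 592 were among the 614. It was 558 and 656 with the isolation distance doubled and halved, and 575 when any replicate 1 peak ended isolation. The median width of 1802 bases became 1903 at the higher thresholds and 1664 at the lower, and the excess over isolated weaker peaks, 392 bases, became 458 and 301.5. Taken from replicate 2 in place of replicate 1, the width was 1853 bases and the excess 435. The cause of these moves was not tested. The other settings left the width between 1802 and 1809 bases and the excess between 391 and 408, and the median centre distance stayed between 90.5 and 97 bases under all 6 settings computed for it. Settings applied to the width excess, and most of those applied to the width and the centre distance, were chosen after the data were seen. No paired analysis was possible because the values given here come from no test between groups, the ChIP replicates being a single group. The planned siIRF4 and siCTRL comparisons were left out. Only 2 ChIP libraries and their scores limit the precision.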

Other observations

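Outside chromosomes 1 to 22 and X, 10 further replicate 1 peaks were shared, and 2 of them passed both score thresholds. They lay on contigs that hg19 leaves unplaced or unlocalized. The peak on 17_gl000205_random, from 84219 to 88108, scored 528 in replicate 1 and 3100 in replicate 2. The peak on Un_gl000220, from 6386 to 8716, scored 345.76 and 1202.68. A replicate 2 score of exactly 3100 was also listed for 3 members, at chr13:41633771-41636495, chr3:112885300-112886581 and chr10:77804250-77805449, whose replicate 1 scores were 2272.09, 693.47 and 541.35. In the whole lists this exact score stood at 2 peaks of replicate 1 and 4 peaks of replicate 2. Whether it is a fixed value is not given in the sources used here, so the order of the top scores is uncertain.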
